A study of Mus musculus with 7 samples.

Results

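The mitochondrial genome of the mouse was described through its 37 annotated transcripts, the rows of the count table whose gene symbol begins with mt-. They are 37 of 55536 genes and comprise 13 protein-coding genes, 2 ribosomal RNAs and 22 transfer RNAs. Whole-brain RNA came from C57BL/6 pups on postnatal day 0. Wild-type animals (2 males and 2 females) were compared with littermates that carried 1 Setd2 allele with the R2483H change in its SRI domain and 1 wild-type allele, written Setd2SRI/wt (1 male and 2 females). Setd2 encodes a histone H3 lysine 36 methyltransferase, and its SRI domain binds RNA polymerase II. Gene counts do not show the base change itself, so they do not check the genotype labels. Litters are not identified in the labels, and a p-value here reflects only how far these 7 libraries spread.

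Mitochondrial DNA is a small circle whose strands, called heavy and light, are both read by a dedicated polymerase, Polrmt, into long precursor RNAs. Most of its protein-coding and ribosomal RNA genes are separated by transfer RNAs, and cutting at the ends of the transfer RNAs releases the RNAs between them. The proteins are core subunits of respiratory chain complexes I, III and IV and of ATP synthase, and the ribosomal and transfer RNAs serve the translation of these proteins inside the organelle. Pieces of mitochondrial DNA have also been copied into the nuclear chromosomes, where they are annotated as pseudogenes. RNA polymerase II, the enzyme that Setd2 binds, does not transcribe the mitochondrial genome. Of the members, 28 are transcripts of the heavy strand and 9 of the light strand, the latter being mt-Nd6 and the tRNA genes mt-Tq, mt-Ta, mt-Tn, mt-Tc, mt-Ty, mt-Ts1, mt-Te and mt-Tp.

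Sequences are given here for the light-strand tRNAs whose values are described most closely, since they show how short these genes are. They are printed 5′ to 3′ on the transcribed strand, with the anticodon in capitals, and come from the GENCODE release 21 transcripts on the mm10 build. They lie on the minus strand at chrM:15356-15422 (mt-Tp, proline), chrM:5192-5257 (mt-Tc, cysteine), chrM:14071-14139 (mt-Te, glutamate) and chrM:5018-5086 (mt-Ta, alanine).
mt-Tp: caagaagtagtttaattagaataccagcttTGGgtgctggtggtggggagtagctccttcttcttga
mt-Tc: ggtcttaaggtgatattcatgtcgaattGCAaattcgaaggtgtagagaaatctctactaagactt
mt-Te: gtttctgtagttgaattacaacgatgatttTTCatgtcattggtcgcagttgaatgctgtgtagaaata
mt-Ta: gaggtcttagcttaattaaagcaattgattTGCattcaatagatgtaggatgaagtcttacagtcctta
The 22 tRNA genes are 59 to 75 bases long, and each is shorter than a read of 76 bases. A read over one of them therefore reached into a neighbour or was trimmed. The library size was 300 bp, longer than any tRNA gene. A count at a tRNA gene may thus come from a longer RNA, and is not taken as the level of the released tRNA.

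A second set of sequences shows a nuclear copy that cannot be told from the mitochondrial gene. The first 120 bases of mt-Co2 (chrM:7013-7132, plus strand), a complex IV subunit, are printed above the matching bases of the pseudogenes Gm28661 (chr1:24615446-24615565, minus strand) and Gm13341 (chr2:22587843-22587962, minus strand). Capitals mark the bases that differ from mt-Co2.
mt-Co2: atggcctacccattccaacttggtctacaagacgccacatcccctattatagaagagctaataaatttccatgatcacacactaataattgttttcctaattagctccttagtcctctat
Gm28661: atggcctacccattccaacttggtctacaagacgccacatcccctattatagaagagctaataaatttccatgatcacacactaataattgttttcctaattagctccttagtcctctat
Gm13341: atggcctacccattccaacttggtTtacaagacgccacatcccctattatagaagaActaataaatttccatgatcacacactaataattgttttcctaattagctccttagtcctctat
Over these bases Gm28661 held 0 differences and Gm13341 held 2.

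Total counts ran from 4192021 in wild-type male 2 to 16064644 in wild-type female 1. Values per gene are CPM, counts scaled to a common library total, further scaled by TMM, a factor that corrects for differences in library composition, and levels compared between genes are CPM per kb of transcript. All 8 markers of newborn brain were detected in the libraries. Transcripts of pituitary markers summed to 30.01 CPM in wild-type female 2 and 14.2 CPM in Setd2SRI/wt female 1, and to 3.19 to 5.22 CPM in the other 5 libraries. Pomc, Prl and Gh were at 12.3, 9.22 and 5.17 CPM in wild-type female 2. In Setd2SRI/wt female 1 they were at 9.19, 1.53 and 0.919 CPM, so its sum was mostly Pomc. Markers of choroid plexus summed to 205 CPM in wild-type male 1 and to 605 to 964 CPM in the others. A count of 3, the limit that a count of 0 allows, corresponds to 0.712 CPM in the shallowest library and 0.187 CPM in the deepest, and covers counting error only.

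The members took 7.36% to 9.61% of all gene counts, and most of these were protein-coding transcripts. In wild type the members took 7.76% ± 0.277 (SD, n = 4) and in Setd2SRI/wt 8.43% ± 1.05 (SD, n = 3). Protein-coding transcripts took 6.41%, 6.82%, 6.95% and 7.21% in the wild-type libraries, and 8.40%, 7.18% and 6.57% in the Setd2SRI/wt male, female 1 and female 2. The mutant male was above all other libraries, while mutant female 2 lay within the wild-type range, so the genotypes overlapped. The widest 95% Wilson interval of such a share spanned 0.0512 percentage points, so counting error was small beside the differences between animals. In whole brain, a change in the share of cells rich in mitochondria cannot be told apart from a change in mitochondrial RNA per cell.

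Ribosomal RNAs took 0.933%, 0.926%, 0.984% and 0.713% of counts in wild-type male 1, male 2, female 1 and female 2. They took 1.18% in the Setd2SRI/wt male, 0.907% in female 1 and 0.978% in female 2. Wild-type female 2 was the lowest and the mutant male the highest, and the remaining 5 libraries lay between 0.907% and 0.984%. Ribosomal RNA was depleted before sequencing, so these are levels after depletion, and which ribosomal RNAs the depletion targeted was not given in the sources used here. Transfer RNAs took 0.0187% ± 0.00106 (SD, n = 4) in wild type and 0.0240% ± 0.00403 (SD, n = 3) in Setd2SRI/wt. The mutant male (0.0263%) and mutant female 2 (0.0265%) were above all wild-type libraries (0.0176% to 0.0200%), and mutant female 1 (0.0194%) was among them.

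Ratios within a library remove the total. Ribosomal RNA counts were 9.88% to 14.9% of protein-coding counts, with wild-type female 2 lowest, and the next library was at 12.6%. Transfer RNA counts were 0.258% to 0.284% of protein-coding counts in wild type, and 0.313%, 0.270% and 0.403% in the Setd2SRI/wt male, female 1 and female 2. Mutant female 2, whose protein-coding share was the lowest of the mutants, had the highest transfer RNA ratio. Light-strand tRNA counts exceeded heavy-strand tRNA counts in every library, by 1.73 to 2.72 times in wild type and by 2.28, 2.15 and 2.96 times in the mutants. This excess rested on mt-Te and mt-Tp, which held most of the light-strand counts. In wild-type male 1 they had 728 and 663 counts, and mt-Tc, the next light-strand tRNA, had 162.

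**Figure D1:**
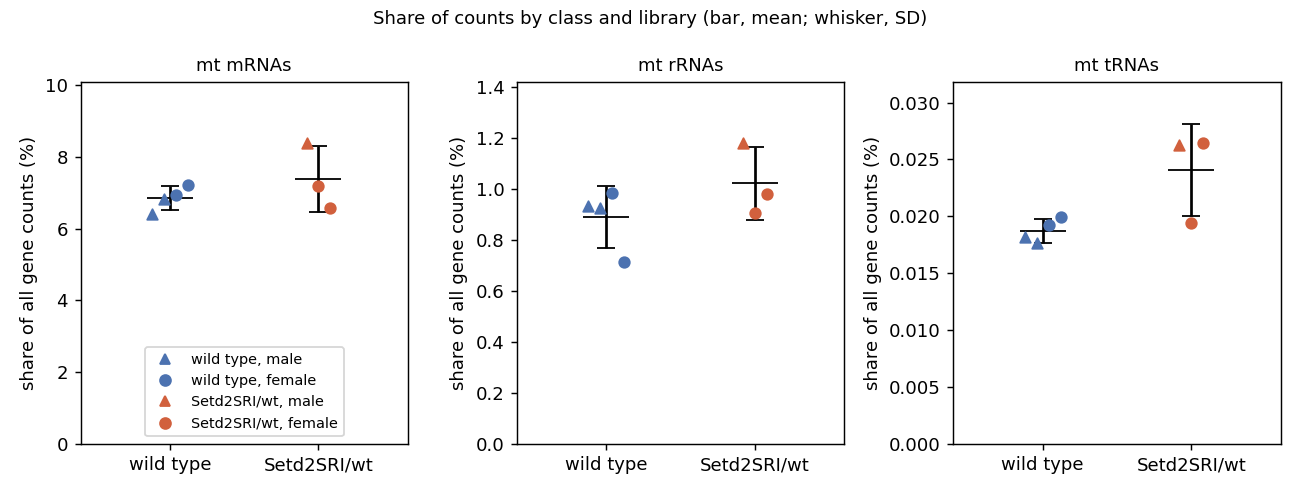
Share of all gene counts (%) in mitochondrial mRNAs, rRNAs and tRNAs, with 1 point per library, the genotype mean as a bar and the SD as a whisker. The Setd2SRI/wt male is highest for mRNAs (8.40%) and rRNAs (1.18%), and 2 of the 3 mutant libraries lie above the wild-type libraries for tRNAs.

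Per kb, the protein-coding transcripts fell into 2 bands. The 7 genes of the upper band had mean levels over the 7 libraries of 4367 to 13613 CPM per kb. They were mt-Co1, a complex IV subunit (13613), mt-Cytb, the complex III subunit (10653), and the complex I subunits mt-Nd1 (10153), mt-Nd2 (8203), mt-Nd6 (5798), mt-Nd4 (5558) and mt-Nd5 (4367). Neighbours in this order overlapped over libraries, except mt-Nd2 (lowest library 7508 CPM per kb) and mt-Nd6 (highest library 7138 CPM per kb). At the top, mt-Co1 ran from 11990 to 17269 CPM per kb, mt-Cytb from 9642 to 12638 and mt-Nd1 from 9017 to 11717. The other 6 genes lay lower, at 61.1 to 579 CPM per kb, with a median of 209. They were mt-Atp8 and mt-Atp6, subunits of ATP synthase (579 and 443), the complex IV subunits mt-Co2 (241) and mt-Co3 (68.1), and the complex I subunits mt-Nd3 (177) and mt-Nd4l (61.1). The highest library of any gene in the lower band, 1205 CPM per kb for mt-Atp6 in the mutant male, was below the lowest of the upper band, 3601 CPM per kb for mt-Nd5 in wild-type male 1.

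The lower band was a single block of the genome. The 6 genes lie whole within the stretch chrM:6394-11042, 4649 bases long, whose ends are marked by sequence shared with annotated pseudogenes on chromosome 1 (chr1:24611535-24616197, minus strand). Of all windows of 76 bases in mt-Co2, mt-Atp6, mt-Co3, mt-Nd3 and mt-Nd4l, 97.8% to 99.9% were also found letter for letter in a transcript of another gene. Identity to the pseudogene was 100% for mt-Co2 (Gm28661), mt-Atp6 (Gm10925), mt-Co3 (Gm28437) and mt-Nd4l (Gm10222), and 99.7% for mt-Nd3 (Gm28438), with 1 difference in 345 bases. No such window was found for mt-Atp8, which overlaps mt-Atp6 by 43 bases. Only that overlap has an annotated pseudogene transcript, Gm10925, opposite it, and 7.47% of the windows of 31 bases in mt-Atp8 were shared. Only annotated transcripts were searched, so the chromosome 1 sequence between the pseudogenes, opposite the rest of mt-Atp8 and the tRNA genes, was not compared. In the upper band the shared part of the windows was 61.5% for mt-Nd4 and 39.4% for mt-Co1, the genes that cross the edges of the stretch, 5.61% for mt-Nd2, 1.54% for mt-Nd5 and 0% for mt-Nd1, mt-Nd6 and mt-Cytb. How reads with several matches were counted was not given in the sources used here, and the part that shared sequence plays in the levels was not tested.

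**Figure D2:**
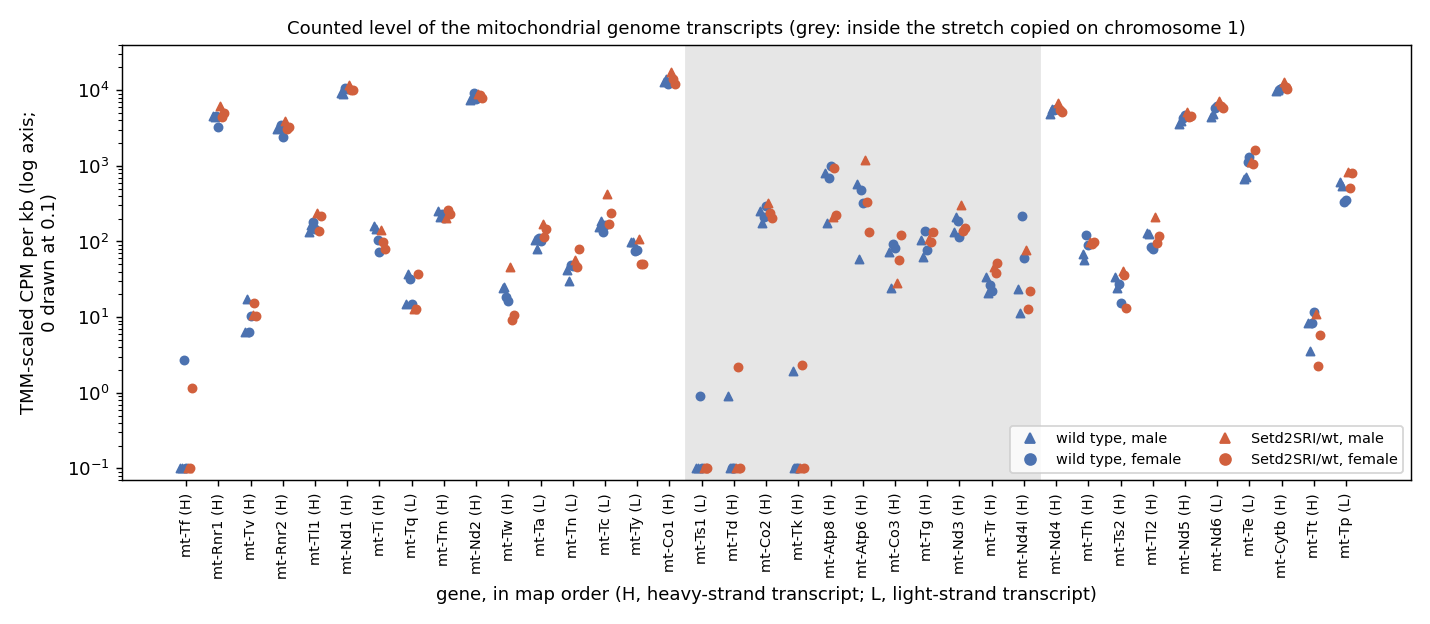
Level of each of the 37 transcripts in map order (TMM-scaled CPM per kb, log axis; values of 0 are drawn at 0.1), with 1 point per library. The grey block holds the genes inside the stretch whose ends are marked by sequence shared with chromosome 1. Its 6 mRNAs lie at 61.1 to 579 CPM per kb on average, below the 4367 to 13613 CPM per kb of the other 7 mRNAs.

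Among the mRNAs, those in the stretch also varied most between animals. The SD of log2 CPM (0.5 CPM added) within genotype was 0.33 to 1.59 for the 6 genes, with a median of 1.05, and 0.11 to 0.19 for the other 7 mRNAs, with a median of 0.15. mt-Atp6 stood at 395, 39.7, 323 and 219 CPM in wild-type male 1, male 2, female 1 and female 2, and at 820, 225 and 90.8 CPM in the Setd2SRI/wt male, female 1 and female 2. Its highest library was 20.7-fold above its lowest, and the genotypes overlapped. mt-Nd4l, the lowest mRNA per kb, stood at 7.07, 3.32, 64.9 and 18.1 CPM in wild type and at 23.2, 3.83 and 6.54 CPM in the mutants. One library, wild-type female 1, held 1041 of the 1680 mt-Nd4l counts. In that library the chromosome 1 pseudogenes Gm10222 (11.9 CPM, against 2.14 to 4.02 CPM elsewhere) and Gm28439 (141 CPM, against 28.2 to 40.3 CPM elsewhere), the copies of mt-Nd4l and mt-Nd4, were highest as well.

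The pseudogene counts also differed between libraries. Gm10925, the copy of mt-Atp6, was at 342 CPM in Setd2SRI/wt female 1 and at 47.0 to 116 CPM in the others. Gm28661, the copy of mt-Co2, was at 184 CPM in wild-type male 1 and at 33.7 to 76.4 CPM in the others. Adding each pseudogene to its member narrowed the range over libraries from 20.7-fold to 10.2-fold for mt-Atp6, from 19.5-fold to 14.1-fold for mt-Nd4l, from 4.96-fold to 3.36-fold for mt-Co3 and from 2.64-fold to 2.57-fold for mt-Nd3. For mt-Co2 it widened from 1.84-fold to 2.33-fold. Gm13340, a copy of mt-Co1 on chromosome 2 with 37 differences in 1545 bases, was at 226 and 234 CPM in the wild-type females and at 49.4 to 83.3 CPM in the other 5 libraries. The 6 mRNAs of the stretch made up 0.429% to 1.45% of mitochondrial mRNA counts, so the class share rests on the other 7.

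**Figure D3:**
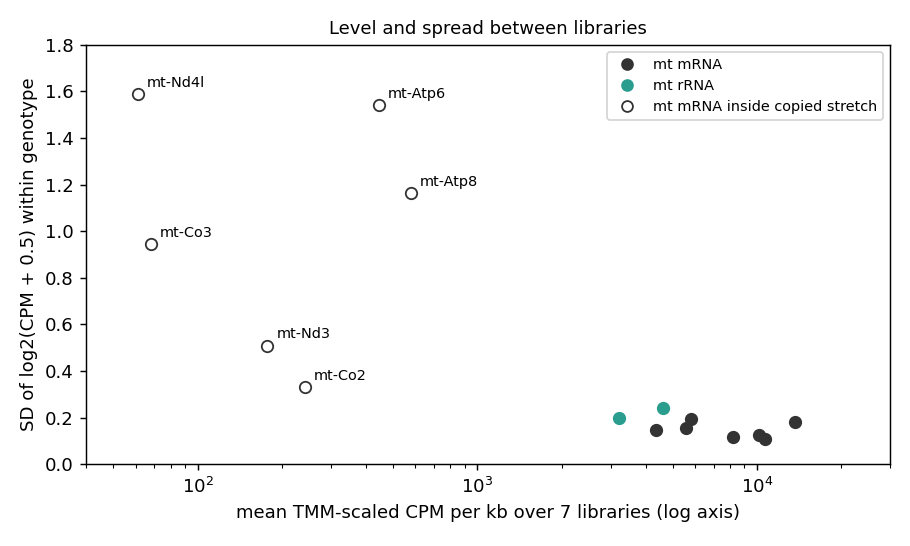
SD of log2 CPM within genotype against the mean level per kb (log axis) for the 13 mRNAs and 2 rRNAs, with 1 point per gene. The 6 mRNAs inside the stretch (open circles, SD 0.33 to 1.59) lie above and to the left of the other mRNAs (SD 0.11 to 0.19).

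The ribosomal RNAs mt-Rnr1, of the small ribosomal subunit, and mt-Rnr2, of the large one, had mean levels of 4617 and 3203 CPM per kb. No window of 76 bases in them was found in another annotated transcript, and nuclear sequence outside annotated transcripts was not searched. Of the transfer RNAs, mt-Te (1084 CPM per kb) and mt-Tp (569) were the highest. Both are light-strand transcripts, and the highest heavy-strand tRNA, mt-Tm for methionine, was at 228 CPM per kb. The median was 98.5 CPM per kb for the 8 light-strand tRNAs and 30.8 for the 14 heavy-strand tRNAs.

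Neighbours on the map differed widely. mt-Te abuts mt-Nd6 on the same strand and stood at 0.187 of its level per kb. mt-Tp and mt-Tt, the tRNA for threonine, abut on opposite strands, and mt-Tp was 77.9-fold higher. mt-Tt itself abuts mt-Cytb on the same strand, and mt-Cytb was 1459-fold higher. Outside the stretch, 8 heavy-strand tRNAs with more than 3 counts in some library adjoin an mRNA or rRNA of their own strand. They stood at 7.30 to 228 CPM per kb, and at 0.000686 (mt-Tt beside mt-Cytb) to 0.0545 (mt-Tl1, for leucine, beside mt-Rnr2) of the level of that neighbour. Inside the stretch chrM:6394-11042, mt-Tg, for glycine, was at 1.51 times the level of mt-Co3 and 0.581 of that of mt-Nd3. There mt-Tr, for arginine, was at 0.193 of the level of mt-Nd3 and 0.561 of that of mt-Nd4l. mt-Td and mt-Tk, with at most 2 counts in a library, were at 0.00106 to 0.00253 of their mRNA neighbours. At 6 tRNAs the counts were too few for a test: mt-Tf, mt-Tv, mt-Ts1, mt-Td, mt-Tk and mt-Tt had 0 to 12 counts in a library. The labels name a stranded kit, but the strand setting of the counting was not given in the sources used here. Reads from opposite strands of overlapping genes may therefore not have been separated. How reads reaching into an adjoining gene were counted also bears on the ratios of tRNAs to their neighbours, and its part was not tested.

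For the comparison of genotypes, 31 members were tested: 13 mRNAs, 2 rRNAs and 16 tRNAs. None was called at an adjusted p under 0.05 in edgeR's quasi-likelihood test, where 0.018% of the 16709 genes tested were called. At an unadjusted p under 0.05 there were 7 members higher in Setd2SRI/wt, where 3.9% of all genes were, and 0 members lower, where 5.09% were (8.98% in either direction). They were mt-Rnr1 and the tRNAs mt-Tp, mt-Tc, mt-Tl2, mt-Tr, mt-Ta and mt-Te. The log2 fold change, Setd2SRI/wt over wild type, was positive in 24 of 31 members and in 51.5% of all genes. Its median was 0.12 for the mRNAs, 0.26 for the rRNAs and 0.27 for the tRNAs, and 0.0069 over all genes. The mRNA median turned to -0.058 with females only and to -0.028 with the library size set to the mitochondrial mRNA counts, while those of the rRNAs (0.19 and 0.12) and tRNAs (0.16 and 0.14) stayed positive. In mt-Ta and mt-Tr the genotypes did not overlap, with the mutants higher, which held for 3.81% of all genes (4.11% with the mutants lower, 7.92% in either direction).

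mt-Tp had the smallest p. It stood at 41.5, 36.3, 22.6 and 23.6 CPM in wild-type male 1, male 2, female 1 and female 2, and at 55.2, 34.3 and 53.3 CPM in the Setd2SRI/wt male, female 1 and female 2. Each mutant was above the wild types of its own sex, but mutant female 1 was below both wild-type males. In edgeR its adjusted p was 0.115 at a log2 fold change of 0.77 ± 0.15 (SE). mt-Tc stood at 10.1, 12.3, 8.79 and 10.8 CPM in wild type and at 28.2, 11.2 and 15.8 CPM in the mutants, with the mutant male far above the rest. Its log2 fold change was 0.83 ± 0.20 (SE) and its adjusted p 0.162.

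mt-Ta stood at 7.14, 5.46, 7.61 and 7.06 CPM in wild type and at 11.7, 7.81 and 10.1 CPM in the mutants (edgeR adjusted p 0.410, log2 fold change 0.50 ± 0.19 SE). mt-Tr stood at 2.32, 1.42, 1.81 and 1.504 CPM in wild type and at 3.11, 2.60 and 3.55 CPM in the mutants (0.81 ± 0.29, adjusted p 0.389). Their groups were separate, although mt-Tr rested on 6 to 45 counts per library. mt-Te stood at 45.6, 49.9, 76.8 and 90.7 CPM in wild type and at 77.9, 72.6 and 110 CPM in the mutants, where mutant female 1 was below both wild-type females (0.36 ± 0.15, adjusted p 0.465). Without the mutant male the log2 fold changes were 0.48 for mt-Tc, 0.31 for mt-Ta and 0.14 for mt-Te, and without mutant female 1 that of mt-Te was 0.55. mt-Tl2, a leucine tRNA, stood at 9.08, 8.79, 6.05 and 5.69 CPM in wild type and at 15.0, 6.74 and 8.43 CPM in the mutants (0.53 ± 0.18, adjusted p 0.336). The median log2 fold change was 0.46 over the 7 tested light-strand tRNAs and 0.18 over the 9 tested heavy-strand tRNAs. The remaining 10 tested tRNAs had log2 fold changes from -0.31 (mt-Ty, for tyrosine) to 0.46 (mt-Tn, for asparagine).

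**Figure D4:**
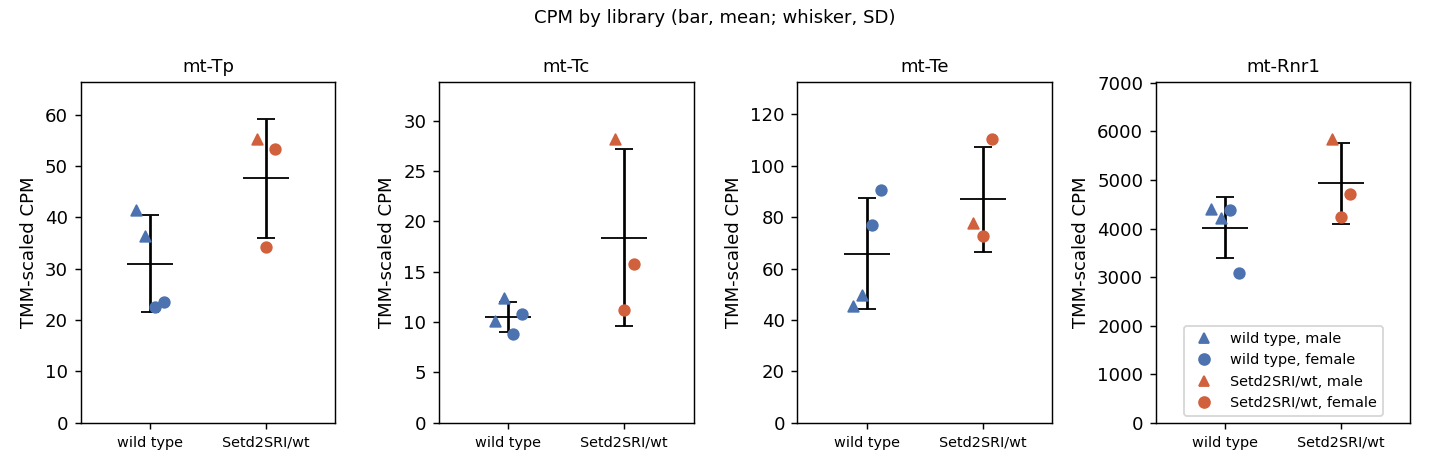
TMM-scaled CPM of mt-Tp, mt-Tc, mt-Te and mt-Rnr1 in each library, with the genotype mean as a bar and the SD as a whisker. The mutant male is highest for mt-Tp (55.2 CPM), mt-Tc (28.2 CPM) and mt-Rnr1 (5843 CPM), mutant female 2 is highest for mt-Te (110 CPM), and the genotypes overlap in each panel.

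mt-Rnr1 stood at 4404, 4222, 4373 and 3079 CPM in wild-type male 1, male 2, female 1 and female 2, and at 5843, 4235 and 4711 CPM in the Setd2SRI/wt male, female 1 and female 2. Wild-type female 2 was below the other libraries and mutant female 1 was level with the rest of the wild types. In edgeR its adjusted p was 0.410 at a log2 fold change of 0.33 ± 0.13 (SE). mt-Rnr2 stood at 4892, 4997, 5488 and 3839 CPM in wild type and at 6126, 4905 and 5227 CPM in the mutants (0.20 ± 0.13, adjusted p 0.735). Its log2 fold change was 0.10 without wild-type female 2 and 0.35 without wild-type female 1. The ratio of mt-Rnr1 to mt-Rnr2 was 0.797 to 0.9003 in wild type and 0.954, 0.863 and 0.901 in the Setd2SRI/wt male, female 1 and female 2. The mutant male was above all wild types, and mutant female 2 was level with the highest wild type.

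Among the mRNAs, none had an unadjusted p under 0.05 in edgeR. mt-Co1, the highest per kb, stood at 19928, 21815, 18912 and 19595 CPM in wild type and at 26681, 21772 and 18524 CPM in the mutants. The mutant male was highest and mutant female 2 lowest of the 7 (adjusted p 0.747, log2 fold change 0.18 ± 0.12 SE). mt-Nd6, the only mRNA of the light strand, stood at 2320, 2545, 2973 and 3251 CPM in wild type and at 3705, 3243 and 3028 CPM in the mutants (0.25 ± 0.13, adjusted p 0.595). Its log2 fold change was 0.010 when the mutant male was left out, and that of mt-Co1 was 0.065. Relative to the other mRNAs outside the stretch it was at 3.82% to 4.93% in wild type and 4.62% to 4.78% in the mutants, so the mutants lay inside the wild-type range. The other 5 mRNAs of the upper band had log2 fold changes of 0.06 to 0.16.

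The mRNAs of the stretch ranged more widely, with log2 fold changes from -1.01 for mt-Nd4l to 0.38 for mt-Atp6. mt-Atp8 stood at 164, 35.9, 143 and 205 CPM in wild type and at 43.3, 191 and 45.1 CPM in the mutants, with the low libraries in both genotypes (-0.82 ± 0.43 SE, adjusted p 0.625). It was -0.35 without wild-type male 1 and -1.63 without mutant female 1. For mt-Nd4l the value was -1.01 ± 0.73 (SE), with an adjusted p of 0.767, and 0.0076 when wild-type female 1 was left out. For mt-Atp6 it was 0.38 ± 0.57 (SE), with an adjusted p of 0.920, and -0.79 when the mutant male was left out.

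**Figure D5:**
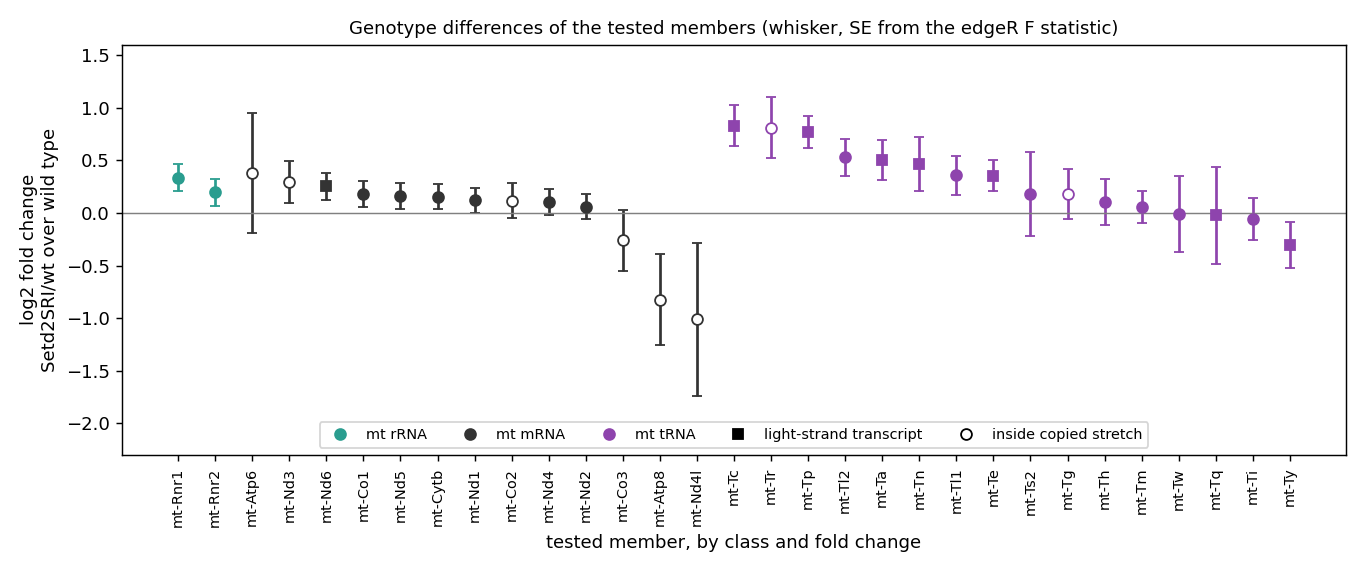
Log2 fold change (Setd2SRI/wt over wild type) of the 31 tested members by class, with the SE derived from the edgeR F statistic as a whisker. Squares are light-strand transcripts and open circles lie inside the stretch whose ends are marked by sequence shared with chromosome 1. The mRNAs outside the stretch lie between 0.06 and 0.25, and mt-Nd4l (-1.01), mt-Atp8 (-0.82) and mt-Co3 (-0.26) are the lowest mRNAs.

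Other tests called some members. The DESeq2 Wald test called 2 members, mt-Tc (adjusted p 0.0476) and mt-Tp (adjusted p 0.0053), where it called 0.443% of all genes, and limma-voom called 0 members (7 at an unadjusted p under 0.05) and 0.00598% of all genes. Without a filter on low counts edgeR called mt-Tc, mt-Tp, mt-Atp8 and mt-Nd4l, where 0.986% of all genes were called. The same 4 were called with the library size set to the mitochondrial mRNA counts, where 1.58% of all genes were, a scaling that moved the median of all genes to -0.12. Without the 2 libraries of highest pituitary marker sums edgeR called mt-Tp, mt-Tc and mt-Te (0.339% of all genes). Without Setd2SRI/wt female 1 alone it called mt-Tp at an adjusted p of 0.0495 (0.0632% of all genes). The log2 fold change of mt-Tp stayed between 0.52 and 0.94 over all alternatives run.

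The mRNA values depended on the single mutant male. With females only, the log2 fold changes of mt-Nd1, mt-Nd2, mt-Nd4 and mt-Nd5 were -0.058, -0.036, -0.066 and -0.022 in edgeR, against 0.12, 0.06, 0.11 and 0.16 in all libraries. The difference between the genotype effects in males and females, the interaction, was called for 0 members and for 0% of all genes by edgeR. At an unadjusted p under 0.05 it was found for 9 members, against 3.27% of all genes, and 7 of them were mRNAs. These mRNAs were mt-Nd1, mt-Nd5 and mt-Nd6 of the upper band and mt-Co2, mt-Atp6, mt-Nd3 and mt-Nd4l of the stretch. The smallest p was that of mt-Nd4l (adjusted p 0.133), whose highest library is the wild-type female 1 named above.

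Sex itself, as a term of the same model, was called for 0 members, where 0.0479% of all genes were called by edgeR, and 11 members had an unadjusted p under 0.05, where 4.69% of all genes did. Of these, 7 were tRNAs. mt-Tl2 was higher in males by 0.75 on the log2 scale (adjusted p 0.625) and mt-Tp by 0.59 (adjusted p 0.793), while mt-Te was lower in males, at -0.59 (adjusted p 0.793).

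Nuclear genes that act on mitochondrial RNA or share complexes with its products were read from 11 lists. The edgeR, DESeq2 and limma-voom tests each called 0 of them, where they called 0.018%, 0.443% and 0.00598% of all genes. For comparison, 51.5% of all genes had a positive log2 fold change. At an unadjusted p under 0.05 in edgeR, 3.9% of all genes were higher in Setd2SRI/wt and 5.09% lower. Of 17 genes for transcription and replication of mitochondrial DNA, 11 had a positive log2 fold change and 1 an unadjusted p under 0.05, Polg, the DNA polymerase (0.21 ± 0.10 SE, adjusted p 0.552). Polrmt, the RNA polymerase, was at 23.0 ± 2.93 CPM in wild type and 23.8 ± 3.59 in the mutants (SD, n = 4 and 3), and Tfam, which packages mitochondrial DNA, at 36.2 ± 2.70 and 34.7 ± 3.799 CPM. Of 36 genes for RNA processing and decay, 17 were positive and 1, Angel2, had an unadjusted p under 0.05 (0.24 ± 0.10, adjusted p 0.455). Lrpprc, which stabilises mitochondrial mRNAs, was at 85.0 ± 3.55 CPM in wild type and 79.5 ± 11.5 in the mutants. The differences of Polrmt, Tfam and Lrpprc were within the spread between libraries.

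Of 19 mitochondrial aminoacyl-tRNA synthetases, which load amino acids onto tRNAs, 12 were positive. The smallest p was that of Cars2, the cysteine enzyme, at 10.3 ± 1.03 CPM in wild type and 14.4 ± 1.19 in the mutants (adjusted p 0.371 for a log2 fold change of 0.45 ± 0.16 SE). Of the 8 regulators of mitochondrial biogenesis, 4 were positive. Pprc1, a coactivator, had an unadjusted p under 0.05 (-0.29 ± 0.12, adjusted p 0.477), and Ppargc1a was at 71.8 ± 5.26 CPM in wild type and 66.6 ± 12.7 in the mutants. Of 77 tested mitochondrial ribosomal protein genes, 52 were positive, with a median of 0.03, and the smallest p was that of Mrpl58 (adjusted p 0.654).

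Nuclear subunits of the respiratory chain had small positive medians, where the median over all genes was 0.0069 and 51.5% of all genes were positive. The median log2 fold change was 0.05 over 36 complex I genes (24 positive, smallest p for Ndufb9), 0.09 over 4 complex II genes (3 positive, Sdhc) and 0.08 over 9 complex III genes (7 positive, Uqcrh). It was 0.12 over 11 complex IV genes, 10 of them positive, and 0.03 over 16 ATP synthase genes, 14 of them positive. The smallest p of the ATP synthase list was that of Atpif1, an inhibitor of the enzyme and not a subunit. In complex IV, Cox6c (0.31 ± 0.11 SE, adjusted p 0.371), Cox6a1 and Cox4i1 had an unadjusted p under 0.05 in edgeR, where 3.9% of all genes were higher. Complex II, which holds no subunit from the mitochondrial genome, had a median within the range of the other complexes. Of the 9 tested pseudogenes of mitochondrial DNA, 5 were positive, and Gm10925 had the smallest p (1.01 ± 0.29, adjusted p 0.227), with its highest library, Setd2SRI/wt female 1, named above. Without that library its log2 fold change was 0.36 (adjusted p 0.358 in edgeR). Gm10925 was called in 3 of 21 alternatives. Among these were edgeR without a filter on low counts (0.986% of all genes called) and with the library size of mitochondrial mRNA counts (1.58%).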

How the data were processed

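Total RNA of 7 newborn brains was depleted of ribosomal RNA and sequenced from a stranded kit as read pairs of 76 bases, per the labels' protocols. The authors deposited raw counts per gene. FastQC, Trim Galore, HISAT2, featureCounts, edgeR and mm10 are named in the submitters' processing notes. Their versions, the strand setting and what was done with multi-mapping reads are not given in the sources used here. Column names were matched to samples through their titles and descriptions. Pairs of libraries of a genotype differed by a chi-square per degree of freedom of 2.18 to 8.88, so none is the same library sequenced again. This does not test whether they come from separate animals.

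The model held sex and genotype and was fitted in edgeR 4.0.16 (R 4.3.3) to the 16709 genes that passed filterByExpr, after TMM scaling. Its quasi-likelihood F-test was two-sided, and a gene was called at a Benjamini-Hochberg adjusted p under 0.05. The SE is the absolute log2 fold change over the square root of F and restates the test. Windows of 76 bases of each member were looked up in all other GENCODE release 21 transcripts, on either strand. Genome sequence outside these transcripts was not searched. Shares use total counts. Alternatives included DESeq2 1.42.0, limma-voom (limma 3.58.1), other scalings and filters, and leaving out libraries. Leaving out the pituitary libraries and the mRNAs of the stretch was chosen after seeing the data. Scripts were first tested on simulated data. The members and lists were chosen with earlier results of these data known. Every member is accounted for. Values in every library were given for the rRNAs, the highest and lowest mRNA per length, mt-Nd6, the 2 mRNAs and 6 tRNAs of smallest p and the 2 most abundant tRNAs. Each list contributed its gene of smallest p, with Tfam, Polrmt, Lrpprc and Ppargc1a. mt-Atp6, Cox6a1, Cox4i1, the sex values and the pseudogene values in single libraries were chosen after their values were seen. Python 3.11.15 and matplotlib 3.10.9 drew the figures.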

Additional observations from a re-analysis of the deposited data

Results flagged for a closer look

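The mt-Rnr1 level in wild type was 3079 CPM in wild-type female 2 and 4222 to 4404 CPM in the other 3 wild-type libraries. The gap to the nearest library was 0.863 of the whole range, above Dixon's 95% critical value for 4 samples. It was 1 of 40 quantities examined, and chance flags about 1 in 20. The same library held the most pituitary marker transcripts (30.01 CPM) and the lowest ratio of ribosomal to protein-coding mitochondrial counts (9.88%), and their part in the low value was not tested. Without this library the log2 fold change of mt-Rnr1 was 0.24 in edgeR, against 0.33 with it.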

How the results depend on the processing

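Over all genes edgeR called 3 for genotype. The number was 1 with total counts, with TMM computed without the members, with a mean CPM of at least 1, with limma-voom, after thinning to the shallowest library and with females only, 0 without a sex term, 5 at an adjusted p under 0.1, 57 without the pituitary libraries, 64 with DESeq2 and 331 without a filter. Leaving out 1 library gave 0 to 108, the latter without wild-type female 1. The same-numbered females share only a number: their deviations correlated at -0.0775 over genes, and the replicate block gave 80 calls, among them 4 members (mt-Atp8, mt-Atp6, mt-Nd4l and mt-Tp; 0.47% of all genes). The median log2 fold change of the mRNAs, 0.12, was -0.058 with females only, -0.057 with the replicate block and -0.058 to 0.21 with 1 library left out, the negative value without the Setd2SRI/wt male. That of the tRNAs, 0.27, was 0.16 to 0.44 with 1 library left out, the highest without wild-type female 1. The rRNA median, 0.26, moved by less than the SD of 0.231 between wild-type libraries, with a range of 0.12 to 0.42. The log2 ratio of the genotype means of the mRNA share, 0.11, was -0.043 in females and 0.0051 to 0.19 with 1 library left out. That of the tRNA share, 0.36, was 0.23 in females, 0.52 without the pituitary libraries and 0.28 to 0.49 with 1 library left out, and that of tRNA to mRNA, 0.26, was 0.39 without the pituitary libraries and 0.090 to 0.39 with 1 left out.

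Directions turned in these cases, and the cause was not tested. With females only the log2 fold changes were -0.79 for mt-Atp6, -0.20 for mt-Co2, 0.024 for mt-Co3, -0.082 for mt-Nd3, 0.017 for Ppargc1a, -0.058 for mt-Nd1, -0.036 for mt-Nd2, -0.066 for mt-Nd4 and -0.022 for mt-Nd5. With the replicate block they were -0.90 for mt-Atp6, -0.18 for mt-Co2, -0.038 for mt-Nd3, 0.0015 for Ppargc1a, -0.057 for mt-Nd1, -0.033 for mt-Nd2, -0.066 for mt-Nd4 and -0.021 for mt-Nd5. With the library size of mitochondrial mRNA counts they were -0.033 for mt-Co2, -0.028 for mt-Nd1, -0.085 for mt-Nd2, -0.039 for mt-Nd4, -0.090 for Polrmt and -0.027 for Sdhc. Without a sex term mt-Co3 was at 0.0024, after thinning Tfam was at 0.034 and without the pituitary libraries Polrmt was at -0.078. With 1 library left out the values ran from -0.79 to 0.93 for mt-Atp6, -0.20 to 0.33 for mt-Co2, -0.75 to 0.066 for mt-Co3, -0.082 to 0.57 for mt-Nd3, -2.94 to 0.0076 for mt-Nd4l, -0.058 to 0.17 for mt-Nd1, -0.036 to 0.14 for mt-Nd2, -0.066 to 0.16 for mt-Nd4, -0.022 to 0.24 for mt-Nd5, -0.093 to 0.13 for Polrmt, -0.16 to 0.014 for Tfam and -0.28 to 0.019 for Ppargc1a. Depth limits the rarest tRNAs: mt-Tr had 6 counts in the shallowest library, and mt-Ts1 had 1 count over all libraries.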
